A study of Mus musculus with 10 samples.

Results

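The genes described here are the secreted and membrane-bound metalloproteinases that cut the extracellular matrix, with their natural inhibitors: the matrix metalloproteinases (Mmp), the ADAMTS proteases and the tissue inhibitors of metalloproteinases (Timp). They were taken by symbol, as every row of the count table whose Ensembl identifier maps to a protein-coding mouse gene named Mmp, Adamts or Timp with a number. The families were chosen with earlier results of these data known. There were 45 such genes among 53379 in the table, made up of 22 Mmp, 19 Adamts and 4 Timp genes. The expression filter kept 24 of them, 10 Mmp, 11 Adamts and 3 Timp genes, and the other 21 are given by their read counts.

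The samples were MC38 cells, a mouse colon carcinoma line, taken from tumors in C57BL/6J mice 21 days after implantation. All mice carried the same dTomato-marked tumor line, and the sort kept cells with dTomato and without CD45, the leukocyte surface protein. One group of 5 mice ate a control diet and the other group of 5 a high-fat diet, with 1 polyadenylated-RNA library per mouse. No source used here gives the age or sex of the mice, the diet composition, the time on diet or the promoter that drives dTomato. Libraries held between 16513388 and 18653705 reads assigned to genes, and every difference below is high-fat minus control.

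Matrix metalloproteinases are made as inactive precursors in which a cysteine of the propeptide blocks the catalytic zinc, and removal of that propeptide switches the enzyme on. Mmp14, which sits in the cell membrane, is known for activating the precursor of Mmp2 in a complex that also contains Timp2, so the inhibitor takes part in activation as well as in restraint. ADAMTS proteases share the zinc-dependent catalytic core and add thrombospondin repeats, which help to place them in the matrix. They are known for cleaving the large proteoglycans versican and aggrecan and for trimming procollagen.

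The labelled cell type was checked against marker genes first. Col3a1 ran from 5140 to 10486 CPM over the 10 libraries, Dcn from 651 to 1280 CPM and Pdgfra from 260 to 465 CPM, where CPM is the read count relative to the scaled library total. These are the 3 highest of 13 genes usually taken as fibroblast markers. The list was uneven: 6 of the 13 had a median of at least 100 CPM, and 6 had a median under 20 CPM, among them Acta2 at 1.31, Fap at 1.42, Thy1 at 2.37 and Col1a2 at 10.95 CPM. The defining epithelial genes were near 0: Epcam had 16 counts in all 10 libraries together, Krt20 had 2, Cdx2 had 2 and Krt8 had 47, and Cdh1, with 271 counts, was the single epithelial marker of 10 that passed the filter. The dTomato sort, not these markers, identifies the cells as tumor cells. Whether stromal cells contributed to the fibroblast-type transcripts was not tested. Endothelial markers, 10 genes, summed to between 25.9 and 41.3 CPM in control and between 31.3 and 53.8 CPM in high-fat mice. Of 5 tested, 4 had a positive and 1 a negative log2 difference. Cdh5 and Vwf were higher at an unadjusted p under 0.05 in edgeR, where 0 passed adjustment. DESeq2 called 1 of 10, Tek, higher on the high-fat diet (adjusted p = 0.0399).

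Leukocyte transcripts remained in spite of the CD45 gate, and those of macrophages tended to be lower on the high-fat diet. All 13 tested macrophage markers were lower on the high-fat diet at an unadjusted p under 0.05 in edgeR, beside 6.62% of all genes tested. Their median log2 difference was -2.42. None passed after adjustment in edgeR, while DESeq2 called 11 of 14, each lower, with Lyz2 and Mrc1 at the smallest adjusted p of 0.000376. The summed macrophage level ran from 63.3 to 436 CPM in control mice, where mice 3 and 4 were highest at 379 and 436 CPM, and from 31.2 to 68.3 CPM in high-fat mice. Pan-leukocyte markers summed to between 29.2 and 217 CPM in control and between 21.7 and 71.3 CPM in high-fat mice. All 9 had a negative log2 difference in edgeR, and DESeq2 called 0 of them. The summed T and NK cell markers did not follow, with means of 5.25 CPM in control and 5.30 CPM in high-fat mice. Of these 11 genes only 2, Gzma and Nkg7, passed the filter, and the list was mixed. In an edgeR fit with no filter Cd3d (-2.48, unadjusted p = 0.0524), Cd3e, Cd3g, Trac, Cd2 and Cd8a had negative log2 differences. Gzma, Nkg7, Cd4, Klrb1c and Ncr1 had positive ones there, and DESeq2 called 0 of the 11. Neutrophil markers were close to 0 in all libraries (at most 3.61 CPM summed over 12 genes), and 0 of the 12 passed the filter. Their mean sums were 2.12 CPM in control and 0.43 CPM in high-fat mice. S100a8 had 2 counts and Ly6g 1 count over the 10 libraries, while Csf3r had 91. Csf3r reached 43 counts in a control library and at most 3 in a high-fat library. DESeq2 called 1 of the 12, Trem1, lower (adjusted p = 0.0331) and 0 higher. Fewer cells of a type and less RNA per cell cannot be told apart in these bulk libraries.

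No gene of the 3 families differed between the diets after adjustment over all genes in edgeR's quasi-likelihood test, the main test. The count was 0 of 24, where 9 of 14337 genes, 0.0628%, passed in the whole table (0.0418% higher and 0.0209% lower). At an unadjusted p under 0.05 there were 9 of the 24, against 12.1% of all genes tested. Of these, 8 were lower on the high-fat diet, against 6.62% of all genes, and 1 was higher, against 5.45%. The groups did not separate fully for any of the 24 tested genes, while they did for 2.18% of all genes tested (1.1% with high-fat mice lower). Without high-fat mouse 1 they separated for 3, Adamts1, Adamts16 and Mmp12, and for 4.27% of all genes. Without control mice 3 and 4 they separated for 2, Mmp11 and Mmp15, and for 10.7% of all genes. The median log2 difference was -0.10 over the 24 genes and 0.01 over all genes.

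The number at an unadjusted p under 0.05 depended on what else was in the model. With the macrophage level as a covariate 2 of the 24 were lower (Mmp11 and Adamts16), beside 7.26% of all genes, and 2 were higher, beside 7.03%. With library size as a covariate 4 were lower, beside 3.29%. Control libraries were the larger ones on average, so library size is partly tied to diet. The macrophage level, the mean log2 CPM of the tested markers, was tied to diet as well. It ran from 1.69 to 4.56 in control and from 0.64 to 1.97 in high-fat mice. Fits with this covariate therefore cannot separate the macrophage level from diet. DESeq2 gave a p for 41 of the genes and called 3 after adjustment (Adamts1, Mmp12 and Mmp13, each lower). Over all genes with a DESeq2 p the share was 1.15% (0.795% lower), counting genes that its filter left out of the adjustment. At an unadjusted p under 0.05 DESeq2 had 10 of the 41 lower, against 4.13% of all genes, and 2 higher, against 2.95%. Limma-voom called 0 of 24, with 9 lower at an unadjusted p under 0.05 against 6.31% of all genes and 1 higher against 5.57%.

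**Figure D1:**
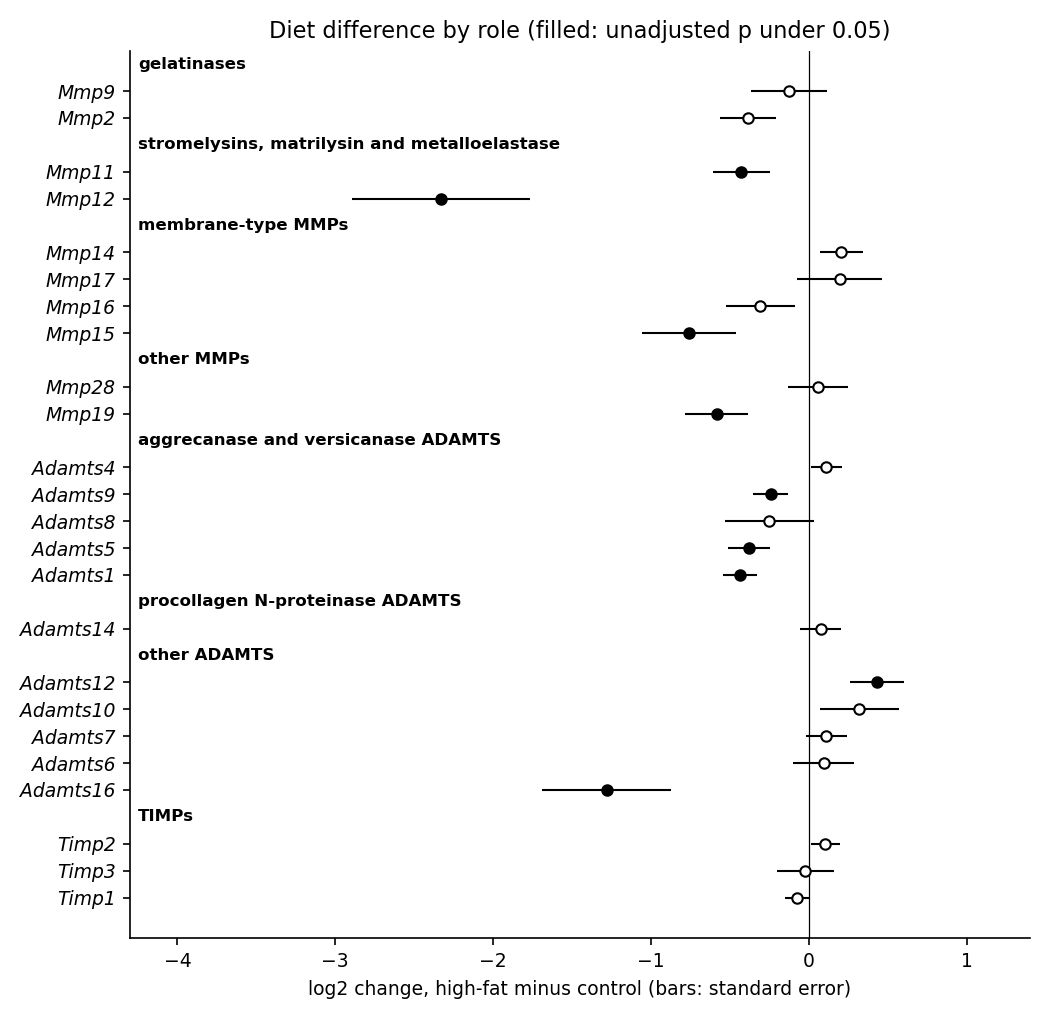
Log2 difference between diets (horizontal axis, high-fat minus control) for the 24 tested genes grouped by role, with the standard error as bars; filled points had an unadjusted p under 0.05 in edgeR. Of the 9 filled points 8 lie to the left of 0, and Mmp12 at -2.33 and Adamts16 at -1.28 lie farthest out.

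On a scale that corrects for gene length, the inhibitor Timp2 was the most abundant transcript of the 3 families. Timp2 stood at 482 ± 44.6 RPKM (CPM divided by exon length in kilobases; SD, n = 10) and ranked 49 among the 14337 genes tested. The secreted gelatinases Mmp2 and Mmp9 and the membrane protease Mmp14 followed at 213 ± 51.4, 177 ± 46.9 and 151 ± 26.4 RPKM. The lowest Timp2 library, at 406 RPKM, was above the highest Mmp2 library, at 298 RPKM, whereas the ranges of Mmp2, Mmp9 and Mmp14 overlapped. Together Mmp2, Mmp9 and Mmp14 made up between 90.2% and 93.3% of the summed RPKM of all 22 Mmp genes in every library.

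A second tier held Timp1 at 47.7 ± 3.77 RPKM, Adamts14 at 42.8 ± 6.52, Mmp11 at 38.3 ± 9.94, Adamts4 at 31.4 ± 3.64 and Adamts1 at 25.7 ± 5.04 RPKM. The remaining 15 tested genes were each below 8 RPKM on average. Mmp17, Adamts16, Mmp15 and Mmp12 were lowest, between 0.150 and 0.255 RPKM.

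**Figure D2:**
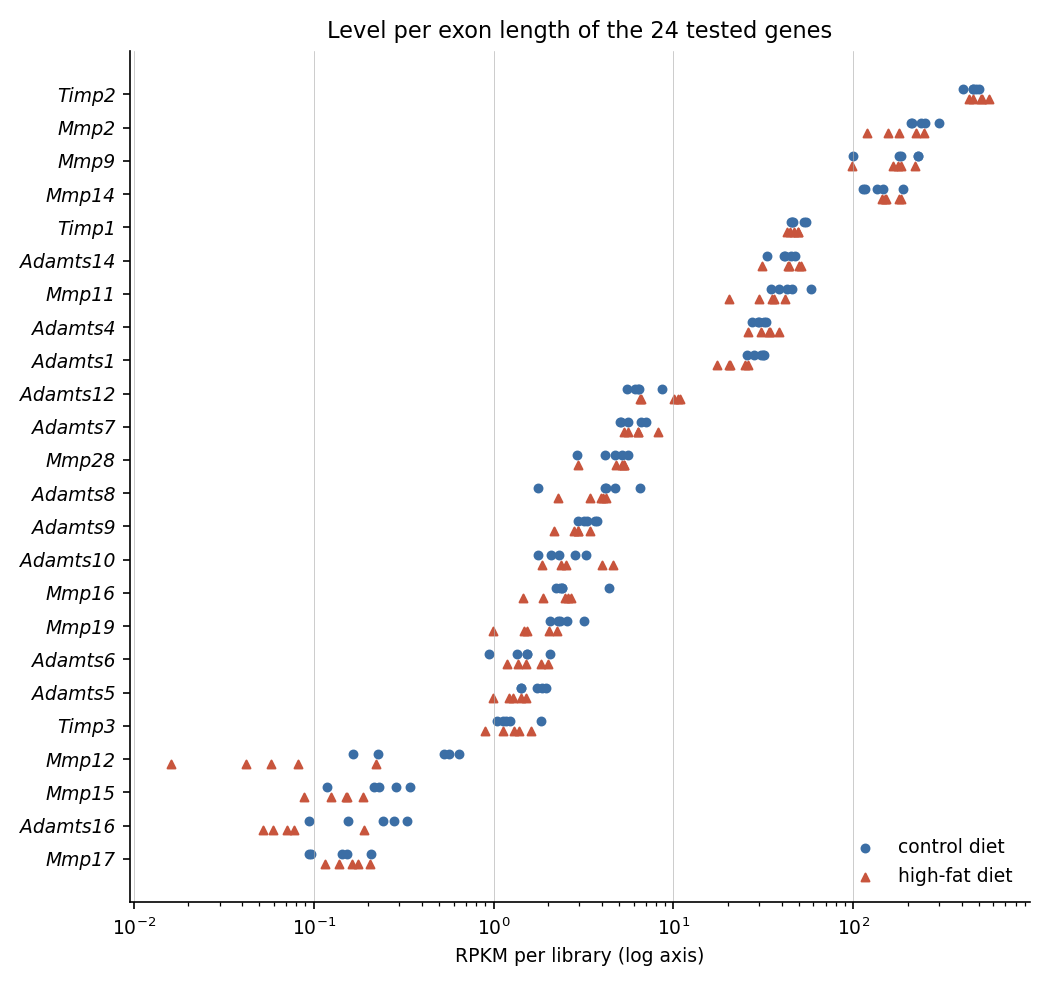
RPKM per library on a log axis (horizontal) for the 24 tested genes, ordered by their mean over 10 libraries; circles are control and triangles high-fat mice, 5 each. Timp2, Mmp2, Mmp9 and Mmp14 stand above the rest, and the 2 diets overlap for every gene.

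Mmp2 (chromosome 8, 92827291 to 92853420 on GRCm38) encodes gelatinase A, which degrades denatured collagen and the type IV collagen of basement membranes. Its level was 848, 714, 705, 803 and 1003 CPM in control mice 1 to 5 and 834, 753, 527, 607 and 400 CPM in high-fat mice 1 to 5. High-fat mice 3, 4 and 5 lay below every control mouse, and mice 1 and 2 lay among the controls. This gave a log2 difference of -0.38 (SE 0.18), with an unadjusted p of 0.0518 and an adjusted p of 0.420 in edgeR.

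The other gelatinase gene, Mmp9 (chromosome 2, 164940780 to 164955850), stood at 813, 809, 352, 636 and 655 CPM in control mice 1 to 5 and at 781, 630, 585, 651 and 348 CPM in high-fat mice 1 to 5. Each diet had 1 low mouse, control mouse 3 and high-fat mouse 5, and the other 8 libraries lay between 585 and 813 CPM. Its log2 difference was -0.12 (SE 0.24, edgeR adjusted p = 0.890). It was 0.023 without high-fat mouse 5 and -0.28 without control mouse 3, the 2 low mice, -0.34 without control mice 3 and 4, and -0.53 with the macrophage level as a covariate (unadjusted p = 0.106, edgeR adjusted p = 0.463).

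Mmp14 (chromosome 14, 54431612 to 54445364), the membrane-anchored activator of the Mmp2 precursor, was at 807, 690, 1127, 672 and 875 CPM in control and at 855, 1063, 909, 1092 and 895 CPM in high-fat mice. All 5 high-fat values exceeded the control median, but the highest single value was that of control mouse 3. Mmp14 had a log2 difference of 0.21 (SE 0.14, edgeR adjusted p = 0.601). It was 0.34 without control mouse 3 (unadjusted p = 0.00903, edgeR adjusted p = 0.176), 0.14 without control mouse 4, 0.03 with library size as a covariate and 0.37 with the macrophage level.

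Among the other membrane-type enzymes, Mmp15 was at 1.54, 1.17, 0.641, 1.85 and 1.25 CPM in control and at 1.01, 0.478, 0.672, 0.828 and 0.816 CPM in high-fat mice, a log2 difference of -0.76 (SE 0.30, unadjusted p = 0.0243, edgeR adjusted p = 0.323). This rests on 180 counts in the 10 libraries, and control mouse 3, at 0.641 CPM, lay inside the high-fat range. Mmp16 was at 20.9, 20.2, 38.0, 19.4 and 20.8 CPM in control and at 16.4, 23.5, 22.4, 21.5 and 12.6 CPM in high-fat mice. Without control mouse 3 its log2 difference of -0.31 (SE 0.22, edgeR adjusted p = 0.640) was -0.08, and with library size as a covariate it was -0.56. The GPI-anchored Mmp17 was at 0.921 ± 0.308 and 1.06 ± 0.231 CPM. Mmp24 had 12 counts and Mmp25, an enzyme of leukocytes, had 38 counts in all, of which 11 and 21 came from control mice 3 and 4, the mice with the highest leukocyte markers.

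Mmp11 (chromosome 10, 75923222 to 75936496) encodes stromelysin-3, which is cut to its active form inside the cell before secretion. It was at 126, 119, 108, 96.4 and 161 CPM in control mice 1 to 5 and at 115, 100, 83.2, 98.1 and 56.7 CPM in high-fat mice 1 to 5. High-fat mice 3 and 5 were below every control mouse, and the groups overlapped. The log2 difference was -0.43 (SE 0.18), with an unadjusted p of 0.0364 and an adjusted p of 0.368 in edgeR. It was -0.75 with the macrophage level as a covariate (edgeR adjusted p = 0.145).

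Mmp19 (chromosome 10, 128790910 to 128800824), a secreted enzyme that cleaves basement membrane proteins, was at 11.3, 7.27, 8.10, 8.29 and 8.996 CPM in control and at 7.21, 7.95, 5.19, 5.44 and 3.50 CPM in high-fat mice. Only high-fat mouse 2 lay inside the control range. For Mmp19 the log2 difference was -0.58 (SE 0.20, unadjusted p = 0.0117, edgeR adjusted p = 0.266). Of the 3533 exonic bases of Mmp19, 1001 overlap exons of genes on the opposite strand, Tmem198b among them, and the strand setting of the counting is not known. Mmp28, or epilysin, was at 17.5 ± 4.02 and 18.2 ± 3.94 CPM, and Mmp20, Mmp21, Mmp23 and Mmp27 were below the filter with between 1 and 55 counts each.

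A block of 9 Mmp genes lies within 427 kb of chromosome 9 (7272514 to 7699585): Mmp13, Mmp12, Mmp1b, Mmp3, Mmp10, Mmp8, Mmp27, Mmp20 and Mmp7 in that order. It contains the collagenases, the matrilysin Mmp7, the stromelysins Mmp3 and Mmp10 and the macrophage elastase Mmp12. The block was nearly silent in these libraries. All 9 genes together had 29 to 160 counts per control library and 4 to 37 per high-fat library, and Mmp12 was the single gene of the block that passed the filter. Mmp7 had 0 counts in every library, which allows up to 3 counts per library or, at these depths, between 0.158 and 0.183 CPM (counting error only, since reads carry no molecular identifiers).

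The sequences just before the RefSeq starts of these genes are shown because many Mmp promoters are known to respond to the transcription factor AP-1. Each stretch is the 120 bases before a start, read 5′ to 3′ on the gene's strand from RefSeq on GRCm38.p6, with the AP-1 letters TGACTCA, or TGAGTCA where the match is on the other strand, in capitals.
Mmp13, chr9:7272394-7272513, plus strand: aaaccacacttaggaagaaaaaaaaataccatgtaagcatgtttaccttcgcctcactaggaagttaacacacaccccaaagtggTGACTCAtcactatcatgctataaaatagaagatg
Mmp12, chr9:7347254-7347373, plus strand: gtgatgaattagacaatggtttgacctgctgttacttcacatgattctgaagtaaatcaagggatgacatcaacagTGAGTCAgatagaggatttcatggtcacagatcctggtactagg
Mmp1b, chr9:7388027-7388146, minus strand: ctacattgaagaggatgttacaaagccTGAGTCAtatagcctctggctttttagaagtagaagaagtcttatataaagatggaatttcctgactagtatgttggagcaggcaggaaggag
Mmp3, chr9:7445702-7445821, plus strand: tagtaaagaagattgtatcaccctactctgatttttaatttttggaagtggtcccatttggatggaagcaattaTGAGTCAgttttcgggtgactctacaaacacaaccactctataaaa
Mmp10, chr9:7502222-7502341, plus strand: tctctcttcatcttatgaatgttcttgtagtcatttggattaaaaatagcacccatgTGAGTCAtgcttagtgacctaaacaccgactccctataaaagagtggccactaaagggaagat
Mmp7, chr9:7691970-7692089, plus strand: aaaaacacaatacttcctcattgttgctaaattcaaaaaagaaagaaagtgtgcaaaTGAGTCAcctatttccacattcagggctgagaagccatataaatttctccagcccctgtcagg

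These 6 genes were the members with a match, out of the 31 members for which a window was found, and all 6 belong to the block of 9. Windows ran from 250 bases before to 50 bases after the start, and 5.95% of 27025 genes had the motif on either strand in at least 1 window. None of the 22 members outside the block with a window had it. The members without a window, Mmp2 and Mmp9 among them, were not scanned. In the printed stretches the first letter of the motif lay 35 bases before the start for Mmp13, 44 for Mmp12, 46 for Mmp3, 63 for Mmp10 and Mmp7 and 93 for Mmp1b. The Mmp12 window belongs to a start 2993 bases inside the GENCODE gene model, and the window at its outer start had no match. A match of letters is a description of the sequence and shows no binding. Of 20 tested genes for AP-1, ETS and other factors known to act on such promoters, none passed adjustment in edgeR. DESeq2 called 1 of 21, Ets2, beside 1.15% of all genes with a DESeq2 p.

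Mmp12 was at 4.09, 1.64, 3.85, 4.65 and 1.196 CPM in control mice 1 to 5 and at 1.61, 0.418, 0.305, 0.591 and 0.117 CPM in high-fat mice 1 to 5. Of the high-fat mice, 4 lay below every control mouse and mouse 1 lay between the 2 lowest controls. The log2 difference was -2.33 (SE 0.56), a 5.03-fold lower level, with an unadjusted p of 0.00147 and an adjusted p of 0.174 in edgeR. DESeq2 gave an adjusted p of 0.00335. Without high-fat mouse 1 the difference was -3.08 in edgeR, and its adjusted p over the alternatives tried ran from 0.00335 to 0.819.

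Macrophage markers moved with Mmp12, which is known as an enzyme of macrophages. The 3 control mice with the most Mmp12 (mice 1, 3 and 4) were also those with the most macrophage transcript, at 166, 379 and 436 CPM summed. Control mice 2 and 5, at 63.3 and 76.1 CPM, had Mmp12 levels of 1.64 and 1.196 CPM, close to high-fat mouse 1 at 1.61 CPM, whose macrophage sum was 31.2 CPM, the lowest of all. With the macrophage level as a covariate the log2 difference of Mmp12 was -1.46 (unadjusted p = 0.0792, edgeR adjusted p = 0.417). This fit cannot separate the macrophage level from diet, and the part of these cells in the difference was not tested.

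Mmp13, the main collagenase of the mouse, did not pass the filter and was picked out once its values were known. It had 20, 13, 16, 62 and 5 counts in control mice 1 to 5 and 1, 4, 0, 2 and 0 counts in high-fat mice 1 to 5. Every high-fat library was below every control library in CPM, and control mouse 4, the mouse with the most macrophage transcript, stood far above the rest. Control mouse 3, with the next highest macrophage sum of 379 CPM, had 16 counts, fewer than control mouse 1. In an edgeR fit with no filter the log2 difference was -3.83 (unadjusted p = 0.00085, edgeR adjusted p = 0.144), and DESeq2 gave an adjusted p of 0.0012. Without a filter the groups separated for 1 of 41 members, this gene, and for 1.46% of all genes with any count.

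Mmp3 and Mmp10, related in sequence (8.4% of the 50-base windows of Mmp3 recur elsewhere, chiefly in Mmp10), had 47 and 36 counts in all. Of these, 36 and 27 were in control mice and most of those in control mouse 2, at 20 and 14 counts. The collagenase genes Mmp8 and Mmp1b had 1 count each over the 10 libraries.

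**Figure D3:**
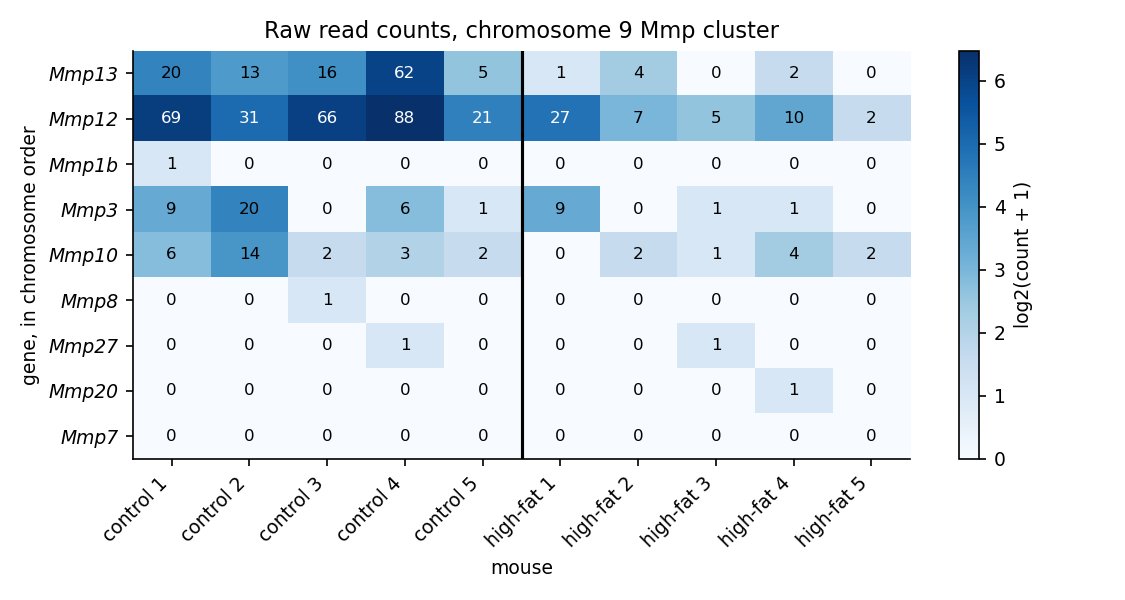
Raw read counts of the 9 genes of the chromosome 9 block (rows, in chromosome order) in each mouse (columns, 5 control then 5 high-fat); the shade is log2 of the count plus 1 and the count is printed in each field. Mmp13 and Mmp12 hold most of the counts and have fewer in the high-fat libraries, from 0 to 4 for Mmp13 and from 2 to 27 for Mmp12.

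**Figure D4:**
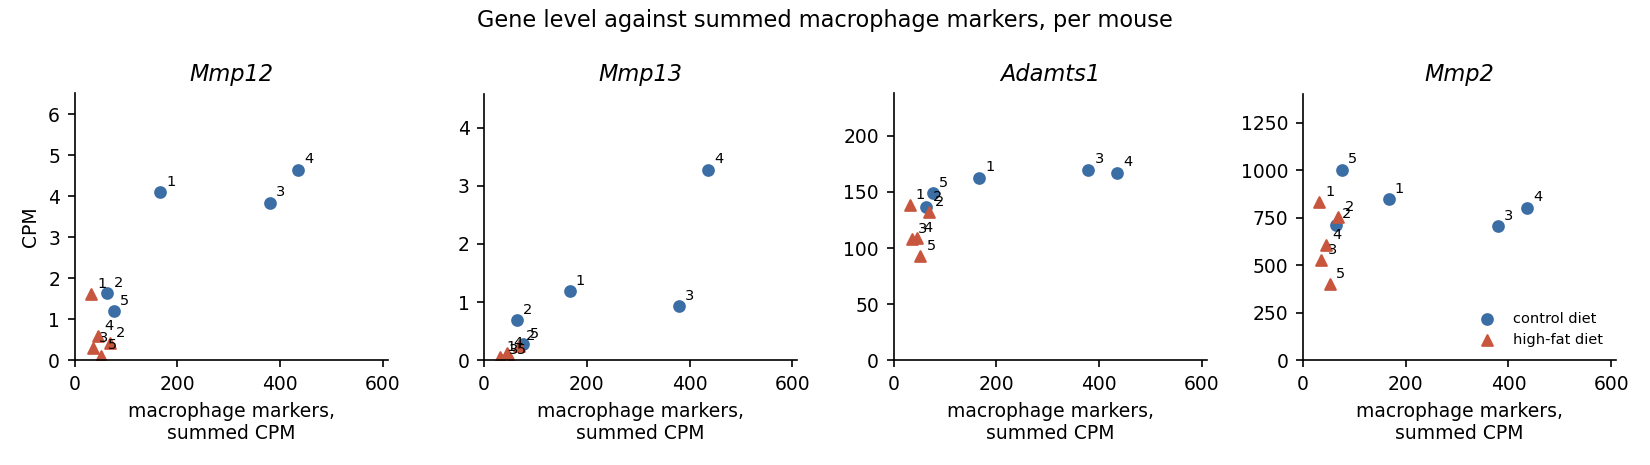
CPM of Mmp12, Mmp13, Adamts1 and Mmp2 (vertical axes) against the summed CPM of 14 macrophage markers (horizontal axis) in each mouse, with mouse numbers beside the points. Control mice 3 and 4 lie far to the right at 379 and 436 CPM, while the 5 high-fat mice lie between 31.2 and 68.3 CPM.

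Among the proteoglycan-cleaving ADAMTS genes, Adamts1 had the smallest p of all members. Adamts1 (chromosome 16, 85793827 to 85803113) encodes a secreted protease that cleaves versican and aggrecan and is known to restrain blood vessel growth. Its level was 163, 136, 170, 167 and 149 CPM in control mice 1 to 5 and 138, 132, 108, 109 and 92.5 CPM in high-fat mice 1 to 5. High-fat mouse 1, at 138 CPM, exceeded control mouse 2, at 136 CPM, and this was the single overlap. The log2 difference was -0.44 (SE 0.11), a 1.35-fold lower level, with an unadjusted p of 0.00141 and an adjusted p of 0.172 in edgeR.

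The adjusted p of Adamts1 was 0.0166 in DESeq2 and 0.0468 in edgeR with the level of fibroblast markers as a covariate, and over all alternatives it ran from 0.0166 to 0.819. With the macrophage level as a covariate the difference was -0.30 (unadjusted p = 0.0746). In control mice Adamts1 was highest in mice 3 and 4, the mice with the most macrophage transcript, at 170 and 167 CPM. Control mouse 1 was close to them at 163 CPM. In high-fat mice Adamts1 was highest in mouse 1, at 138 CPM, whose macrophage sum of 31.2 CPM was the lowest of all. The part of macrophage RNA in the Adamts1 difference was not tested, since the covariate was itself tied to diet.

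Its neighbour Adamts5 (chromosome 16, 85856173 to 85901828), the main aggrecanase of mouse cartilage, lies next to Adamts1 on the same strand. It was at 15.2, 15.3, 21.0, 19.97 and 18.7 CPM in control and at 13.1, 16.4, 15.3, 13.9 and 10.7 CPM in high-fat mice, and 3 high-fat mice lay below every control mouse. The log2 difference was -0.38 (SE 0.13, unadjusted p = 0.0127, edgeR adjusted p = 0.267). With the macrophage level as a covariate it was -0.17.

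Adamts9, a versicanase, was at 44.6, 49.8, 56.4, 55.1 and 48.0 CPM in control and at 32.6, 44.1, 44.1, 42.2 and 51.6 CPM in high-fat mice, where mouse 5 lay among the controls. Its log2 difference was -0.24 (SE 0.11, unadjusted p = 0.0466, edgeR adjusted p = 0.400). It was -0.15 without high-fat mouse 1, -0.11 with library size as a covariate and -0.05 with the macrophage level. Exons of Adamts9 overlap those of opposite-strand genes over 1805 bases. The aggrecanase Adamts4 was at 145 ± 9.83 and 157 ± 22.6 CPM and Adamts8 at 19.7 ± 7.84 and 16.6 ± 3.64 CPM. Adamts15 and Adamts20 had 10 counts each.

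Of the enzymes that trim the amino end of procollagen, Adamts14 (chromosome 10, 61197112 to 61273438) was the one expressed. It stood at 235, 214, 245, 217 and 171 CPM in control and at 162, 259, 228, 225 and 266 CPM in high-fat mice, where mouse 1 lay below every control mouse and mice 2 and 5 above every one (log2 difference 0.08, SE 0.13, edgeR adjusted p = 0.870). With the macrophage level as a covariate it was 0.33. The other two, Adamts2 and Adamts3, had 35 and 0 counts.

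Adamts12 (chromosome 15, 11064790 to 11349231) encodes a protease that cleaves the cartilage oligomeric matrix protein. Of the members that passed the filter, it was the single one with a higher level and an unadjusted p under 0.05 in edgeR. It was at 66.7, 59.9, 70.1, 69.8 and 94.2 CPM in control and at 72.0, 118, 110, 115 and 70.7 CPM in high-fat mice. High-fat mice 2, 3 and 4 lay above every control mouse, while mice 1 and 5 lay near the control median. On the log2 scale the difference was 0.43 (SE 0.17, unadjusted p = 0.0271, edgeR adjusted p = 0.336). Its close relative Adamts7, which shares that substrate, was at 37.0 ± 5.71 and 40.0 ± 7.07 CPM.

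Adamts16 (chromosome 13, 70727802 to 70841811) was at 1.07, 1.91, 0.641, 2.27 and 1.65 CPM in control and at 1.31, 0.359, 0.489, 0.532 and 0.408 CPM in high-fat mice. Again 4 high-fat mice lay below every control mouse and high-fat mouse 1 lay among the controls. Adamts16 had a log2 difference of -1.28 (SE 0.41, unadjusted p = 0.00807, edgeR adjusted p = 0.243) on 189 counts in all. It was -1.65 with the macrophage level as a covariate and -0.77 with library size. Adamts6 and Adamts10, which act on fibrillin microfibrils, were at 11.6 ± 3.12 and 12.3 ± 2.62 CPM and at 20.2 ± 4.93 and 25.3 ± 9.65 CPM. Adamts13, the protease of von Willebrand factor, and Adamts19 had 0 counts, and Adamts17 and Adamts18 had 3 and 7.

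**Figure D5:**
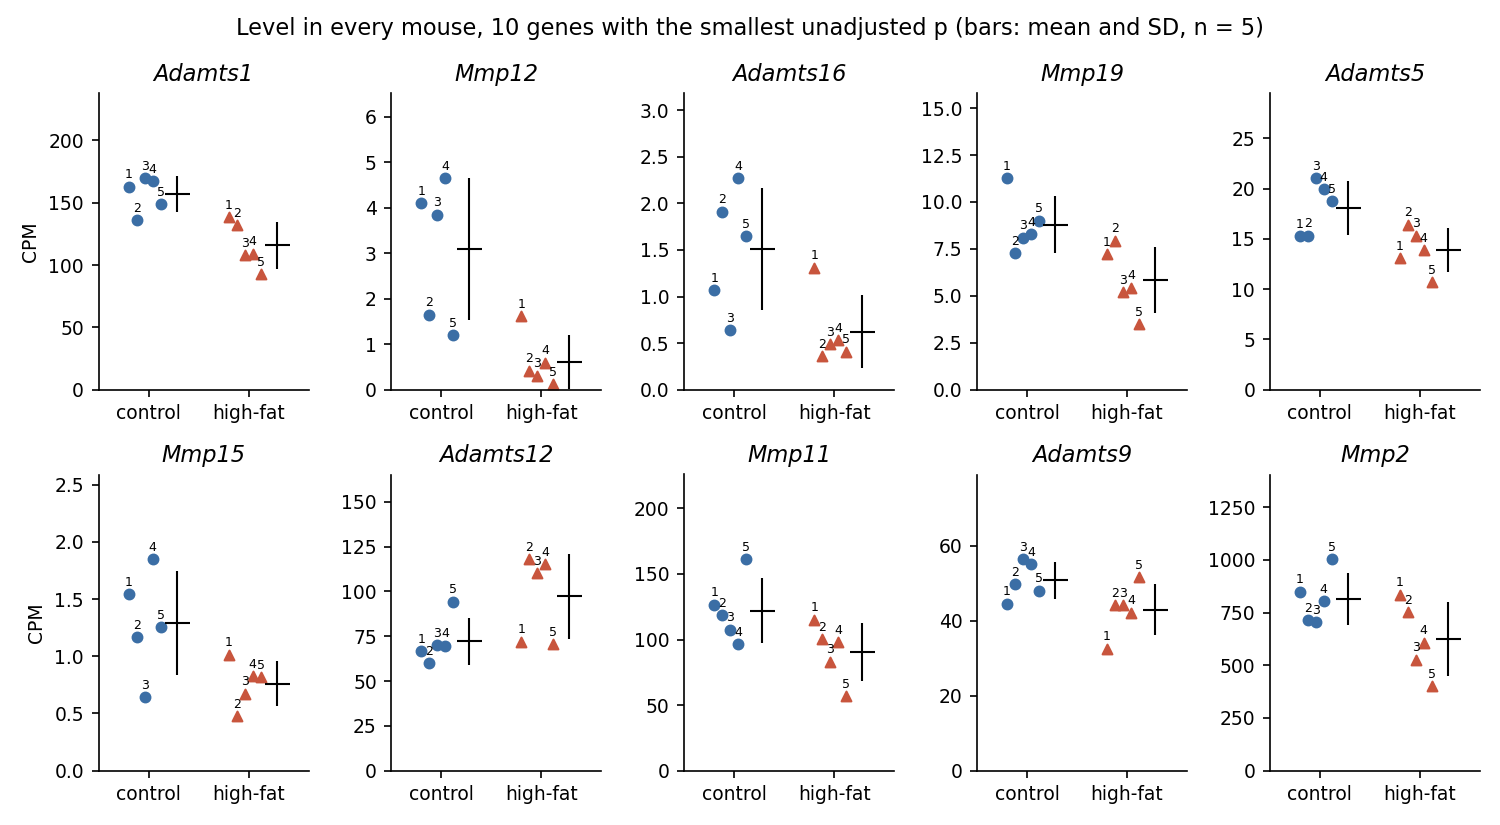
CPM in every mouse (points numbered by mouse, 5 per diet) for the 10 genes with the smallest unadjusted p, with the mean and SD as a short line and bar. High-fat mouse 1 lies among the control mice for Adamts1, Mmp12 and Adamts16, and high-fat mouse 5 is the lowest point for Adamts1, Mmp12, Mmp19, Adamts5, Mmp11 and Mmp2.

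None of the 3 tested inhibitors had an unadjusted p under 0.05. Timp2 (chromosome 11, 118301069 to 118355740) was at 1811, 1810, 1882, 1582 and 1954 CPM in control and at 1805, 2206, 1989, 2009 and 1714 CPM in high-fat mice. For Timp2 the log2 difference was 0.11 (SE 0.09, edgeR adjusted p = 0.718). Of the high-fat mice, 3 lay above every control mouse, and mice 1 and 5 each lay below all controls but control mouse 4. Timp1 (X chromosome, 20870166 to 20874735), an inhibitor often induced by inflammation, was at 47.0, 48.5, 40.3, 41.1 and 40.1 CPM in control and at 43.5, 41.6, 39.7, 37.9 and 43.7 CPM in high-fat mice, with a log2 difference of -0.07 (SE 0.08, edgeR adjusted p = 0.781).

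Timp3, the inhibitor that binds to the matrix itself, was at 10.03, 14.9, 8.51, 9.19 and 9.51 CPM in control and at 7.33, 13.1, 10.6, 11.3 and 9.16 CPM in high-fat mice. Its log2 difference was -0.02 (SE 0.18, edgeR adjusted p = 0.976), and its exons overlap Syn3 on the opposite strand over 1733 bases. Timp4 had 2 counts.

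The balance of proteases to inhibitors is given as a description, with no test. The summed RPKM of all Mmp genes divided by that of all Timp genes ran from 1.03 to 1.30 in control mice (1.21 ± 0.111, SD, n = 5) and from 0.802 to 1.29 in high-fat mice (1.02 ± 0.182, SD, n = 5). High-fat mouse 1, at 1.29, lay among the controls, high-fat mice 2 and 4, at 1.02 and 1.06, lay near the lowest control, and high-fat mice 3 and 5 were the lowest at 0.923 and 0.802. The summed Mmp level was 622 ± 63.9 and 558 ± 107 RPKM and the summed Timp level 514 ± 35.9 and 547 ± 47.9 RPKM. Timp2 alone made up between 89.2% and 92.1% of the Timp sum.

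In the rest of the matrix-cutting system no gene passed adjustment in edgeR either. DESeq2 called Plau, Adam9, Adamtsl3 and Ets2, each lower on the high-fat diet. It called 1 of 20 genes of plasminogen activation and Mmp control, 1 of 11 ADAM genes and 1 of 7 ADAMTS-like genes. It called 1 of 21 transcription factor genes and 0 of 20 substrates, beside 1.15% of all genes (0.795% lower). For the unadjusted edgeR counts below, the shares over all genes tested were 6.62% lower and 5.45% higher. Of 11 tested genes of plasminogen activation and Mmp control, 1 was lower at an unadjusted p under 0.05: Plau, the urokinase that activates plasmin, was at 2.96 ± 2.22 and 0.799 ± 0.122 CPM (log2 difference -1.88, SE 0.48, edgeR adjusted p = 0.183, DESeq2 adjusted p = 0.00915). Bsg, which encodes the Mmp inducer basigin, was next at 1090 ± 103 and 946 ± 122 CPM. The median log2 difference of this list was 0.02.

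Of 7 tested membrane-anchored ADAM genes, Adam9 was lower, at 204 ± 8.97 and 170 ± 10.8 CPM (log2 difference -0.26, SE 0.06, unadjusted p = 0.00136, edgeR adjusted p = 0.172, DESeq2 adjusted p = 0.0084). Adam19 was higher, at 87.5 ± 21.9 and 122 ± 33.6 CPM (edgeR adjusted p = 0.386), and the list's median was 0.01. Of 3 tested ADAMTS-like genes, whose products lack a protease domain, Adamtsl3 was at 31.8 ± 8.49 and 20.8 ± 2.69 CPM (log2 difference -0.61, SE 0.17, edgeR adjusted p = 0.193, DESeq2 adjusted p = 0.0264).

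Among 15 tested matrix substrates, 3 were higher and 1 lower at an unadjusted p under 0.05, with a median of 0.05; the smallest p belonged to the proteoglycan gene Cspg4, at 115 ± 13.1 and 142 ± 21.9 CPM. Among the 20 transcription factor genes, 4 were lower and none higher at an unadjusted p under 0.05, with a median of -0.09. For both lists the shares over all genes tested were 6.62% lower and 5.45% higher. Ets2, an ETS factor, was at 44.4 ± 3.86 and 33.9 ± 3.13 CPM (log2 difference -0.39, SE 0.08, unadjusted p = 0.000474, edgeR adjusted p = 0.124, DESeq2 adjusted p = 0.00654), and Lef1, the nuclear partner of beta-catenin, was at 25.7 ± 9.08 and 13.98 ± 6.15 CPM.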

How the data were processed

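The deposited values are raw read counts per gene, with 1 column per mouse, as whole numbers that the authors had not normalized, judging by the values. BWA 0.7.12, cutadapt 1.15, DESeq2 1.24.0 and FastQC 0.11.5 are listed without roles in the submitters' processing notes, as are the builds mm10 and GRCm38. No source used here gives the counter, annotation release, strand setting or handling of multi-mapping reads. BWA, if it placed the reads, does not split them across exon junctions. RNA came from RNeasy kits and libraries from NEBNext Ultra RNA kits, per the labels' protocols.

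Of 53379 identifiers, 53274 matched GENCODE M21 (GRCm38) with versions ignored. Counts were fitted with edgeR 4.0.16 in R 4.3.3 on all 10 libraries: filterByExpr, TMM scaling, robust quasi-likelihood fits, diet as the only term, Benjamini-Hochberg adjustment over 14337 genes and a threshold of 0.05. The standard error is the absolute log2 difference divided by the square root of F. Means ± SD are of TMM-scaled CPM; RPKM divides by the union exon length. DESeq2 1.42.0 and limma 3.58.1 (voom) were alternatives, as were other scalings, filters, covariates and omitted mice. The test was tried on simulated counts. No 2 libraries agreed within sampling noise (lowest chi-square per degree of freedom 8.29).

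Genes named with their tests were the 12 members with the smallest p, the 6 with the highest RPKM and the tested Timp genes, and from each companion list up to 2 with the smallest p. The members and lists were chosen with earlier results of these data known.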

Additional observations from a re-analysis of the deposited data

Results flagged for a closer look

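Single mice stood apart from the 4 others of their diet in 4 of 46 groups examined, where about 1 in 20 would by chance. Adamts16 was 1.31 CPM in high-fat mouse 1, against 0.359 to 0.532 CPM in the others. Mmp16 was 38.0 CPM in control mouse 3, against 19.4 to 20.9 CPM. Timp3 was 14.9 CPM in control mouse 2, against 8.51 to 10.03 CPM. Mmp13 had 62 counts in control mouse 4, against 5 to 20 counts. What sets these mice apart was not tested.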

How the results depend on the processing

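The number of members called was 0 in the reported test and without each mouse in turn, 3 with DESeq2, 1 with the mouse number as a replicate block (Mmp12) and 1 with the fibroblast level as a covariate (Adamts1). Over all genes the count was 9, and 53 with no filter, 333 with DESeq2, 5 with limma-voom, 16 with the replicate block, 0 with library size, 211 with the macrophage level, 27 with the fibroblast level, 492 with the pan-leukocyte level (chosen after the data were seen), 276 without control mice 3 and 4, and 1 to 27 without 1 mouse. Members whose groups separated fully numbered 0 (2.18% of all genes), 1 with no filter (1.46%), 2 without control mice 3 and 4 (10.7% of all genes then), and 0 to 3 without 1 mouse, the 3 being Adamts1, Adamts16 and Mmp12 without high-fat mouse 1 (4.27% of all genes then). Of 357 alternative log2 differences of the 17 genes named by rule, 6 reversed: Mmp16 was 0.014 with the macrophage level, Mmp9 was 0.023 without high-fat mouse 5 (range -0.28 to 0.023 over the omitted mice), and Timp3 was 0.23 with library size and turned positive on omitting control mouse 2 (0.14), high-fat mouse 1 (0.08) or high-fat mouse 5 (0.021), with a range of -0.12 to 0.14. The cause was not tested.

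The mouse numbers name different animals, and same-numbered mice did not deviate together (correlations from -0.360 to 0.335, and 2 of 10 libraries closest to their own number), so the block is not a pairing. Depth limits Mmp17, Mmp15 and Adamts16, which had 172, 180 and 189 counts in all.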

Other observations

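High-fat mouse 5 was the lowest of the 10 libraries for 8 of the 24 tested genes: Adamts1, Mmp12, Mmp19, Adamts5, Mmp11, Mmp2, Mmp16 and Mmp9. It was the highest for Adamts14. How often this mouse was the lowest over all genes tested was not counted. Its depth was 17143361 reads, inside the range of the others. Its summed fibroblast-marker level of 6412 CPM was the lowest, against 7139 to 12637 CPM in the other 9 mice. Most of that sum is Col3a1. High-fat mouse 1 was among the control mice for several of the same genes and was not the highest library for any of the 24.

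The promoter windows also differed in composition between the chromosome 9 block and the remaining members with a window, which leave out Mmp2 and Mmp9. None of the 9 block genes had the GC box letters GGGCGG on either strand, while 18 of the 22 other members with a window did, against 38.2% of all genes with a window. The letters TATAAA, on either strand, were in 8 of the 9 block genes and in 2 of the 22 others, against 15.7% of all genes with a window. In these libraries 1 of the 9 block genes passed the expression filter. These are descriptions of letters and of levels, with no test.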
